A study of Homo sapiens with 4 samples.

Results

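The immunoprecipitate (IP) of RKO cells overexpressing ZCCHC7 gave 30 peaks over its own input, with 39 summits. These are all the peaks the authors listed for the overexpressing cells (OE), with the summits of a peak joined, out of 87 peaks in the lists of OE and wild-type (WT) cells together. RKO is an established human colorectal cancer cell line, grown without any other stated treatment, and the study's title asks about the mechanism and targets of ZCCHC7 in this cancer. The 4 libraries were a WT input, a WT IP, an OE input and an OE IP, 1 of each, so no test between the conditions was possible. The labels do not say how ZCCHC7 was overexpressed or whether the OE cells were 1 clone. They also disagree on the antibody: the sample characteristics name ZCCHC7, whereas the protocol describes beads coated with anti-SRSF1 followed by an m6A antibody. A peak is therefore described here as RNA enriched in the IP, with no statement on what was pulled down.

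ZCCHC7 is a zinc-knuckle protein. With the helicase MTR4 and the poly(A) polymerase TENT4B it forms the TRAMP complex of the nucleolus, which adds short adenosine tails to nuclear RNAs and hands them to the RNA exosome for trimming or decay. SRSF1 is an SR protein that binds purine-rich exonic sequence during splicing, and m6A is a methylated adenosine of mRNA and other RNAs.

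The OE IP library held 2725742 tags and its input 396820, a ratio of 6.87. Each value below is the number of IP tags over the summit, where tags are extended to 237 bases, so it does not depend on the length of the gene. The authors' fold is IP pileup over a local background taken from the input, each with 1 tag added. A p cutoff of 0.005 defined their list, and 15 of the 30 peaks (50.0%) also had the authors' q under 0.05. IP over input is the ratio of IP to input tags at the summit after scaling to library totals. Intervals are exact 95% intervals for counting error only, since sequenced tags carry no molecular identifiers and the spread between cultures is unknown. In the whole deposited annotation, 24 of 58735 genes (0.0409%) lay under an OE peak, and the counts for short gene lists below are descriptions to be read against that share. Neither ZCCHC7 nor any marker gene of colorectal epithelium (0 of 9) lay under an OE peak, so these values check neither the overexpression nor the cell type.

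A few short sequences place the summits of the pair of peaks whose position within or beside a gene matters most below. They come from RefSeq on GRCh38.p14, whose genes match the positions of the deposited annotation. The first is the mature miRNA that holds the summit of the strongest chromosome 1 peak, with its seed (bases 2 to 8) in capitals. The next lines are the minus strand of the EEF1A1 promoter, first the 30 bases around the summit and then the 30 bases around the TATAA motif (in capitals).
hsa-miR-12136 (chr1:632668-632685, minus strand): gAAAAAGUcauggaggcc
EEF1A1 around the summit (chr6:73521098-73521127, minus strand): gggtaaactgggaaagtgatgtcgtgtact
EEF1A1 around TATAA (chr6:73521043-73521072, minus strand): gggagaaccgtaTATAAgtgcagtagtcgc

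Most of the IP tags at summits came from SAE1, which with UBA2 makes up the E1 enzyme that activates SUMO, and from its processed pseudogene SAE1P1. Together they held 14877 of the 17305 tags counted at the best summits of the 30 peaks, or 86.0%. With all 39 summits counted, which adds the other summits of the long mitochondrial peak, the share was 66.4% of 22415 tags. All 17305 tags were 0.635% of the IP library. Across the list, the tags at the best summit ranged from 29 to 9661 with a median of 92.5. The authors' fold ranged from 2.18 to 16.7 with a median of 4.85. Length ranged from 237 to 3651 bases with a median of 358, and 27 of the 30 peaks had 1 summit.

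**Figure D1:**
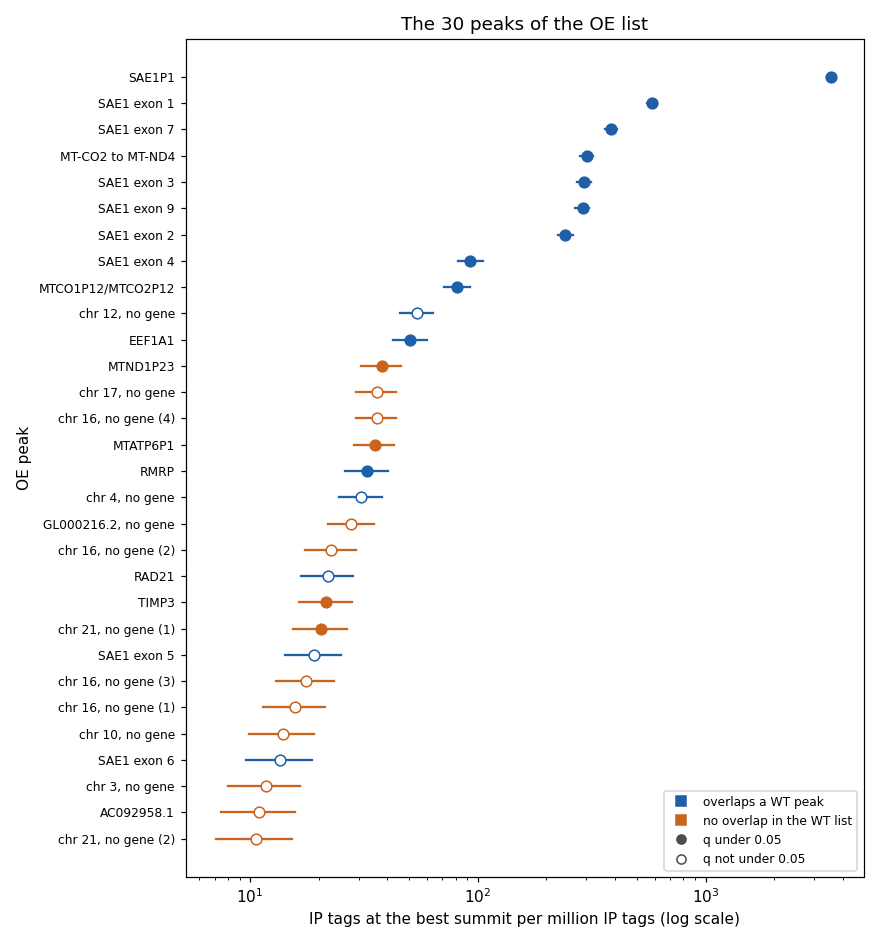
Points give the IP tags at the best summit of each of the 30 OE peaks, per 1000000 IP tags (log axis), with exact Poisson 95% intervals. Colour shows whether the peak overlaps a WT peak and fill whether the authors' q is under 0.05. SAE1P1 stands at 3544 and the second peak, SAE1 exon 1, at 582, while the 14 peaks of the OE list alone lie between 10.6 and 37.8.

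SAE1P1 (annotated as AP003040.1, ENSG00000213184, chromosome 11) carried the tallest peak, with 9661 IP tags and 122 input tags at its summit. The authors' fold was 11.4 with a −log10 q of 930.5, and IP over input was 11.5 (9.64 to 13.9). The peak ran from 123017770 to 123018690, beginning 132 bases into the 1024-base pseudogene and ending 29 bases past it. Its summit lay 570 bases in. This single summit took 0.354% of all IP tags and 0.0307% of all input tags, so the pseudogene was also the place with the most input tags at any best summit.

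SAE1 itself (ENSG00000142230, chromosome 19) had 8 peaks, each over a separate exon of transcript SAE1-201. They lay over exons 1 to 7 and 9, and exon 8 had no OE peak. Exon 1 had 1587 IP tags against 32 input tags, exon 7 had 1044 against 11, exon 3 had 796 against 17 and exon 9 had 786 against 13. Exon 2 had 661 against 5 and exon 4 had 253 against 2. The lowest were exon 5 with 52 IP tags and exon 6 with 37, each against 1 input tag, and at these exons the authors' q was not under 0.05. IP tags thus differed widely between exons of the same transcript, and the exons with few IP tags also had few input tags. IP over input was 7.22 (5.09 to 10.6) at exon 1, 6.82 (4.23 to 11.8) at exon 3 and 8.80 (5.12 to 16.6) at exon 9. It was 13.8 (7.69 to 27.8) at exon 7, 19.2 (8.21 to 59.5) at exon 2 and 18.4 (5.05 to 153) at exon 4. These intervals overlap between every pair of exons named.

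Summed over the 8 exons with a peak, SAE1 had 5216 IP tags and 82 input tags, and IP over input was 9.26 (7.45 to 11.7). SAE1P1 exceeded this sum 1.85 times in the IP and 1.49 times in the input, and the IP over input intervals of gene and pseudogene overlap. SAE1P1 is a copy of the mRNA, so the division of tags between gene and pseudogene by the alignment is uncertain.

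The SAE1 peaks were wider than the exons. Exons 1 to 7 are 100 to 174 bases long, and their peaks, of 237 to 378 bases, began 2 to 137 bases before the exon and ended 62 to 142 bases after it. The summits lay inside the exon at every peak, 63 to 118 bases from its start in exons 1 to 7. At exon 9, 1033 bases long, the peak began 150 bases before the exon with its summit 37 bases in, and it left the last 785 bases uncovered. Tags of 150 bases are extended to 237 without regard to splicing, so the outer parts of such peaks hold extended tags and are no measure of intronic RNA.

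Against WT, less of the OE IP library and more of the OE input library lay at SAE1 and SAE1P1. SAE1P1 had 3544 IP tags per 1000000 in OE and 11939 in WT. Before scaling these were 9661 tags in OE and 10701 in WT, and the 5 SAE1 exons compared below had 4874 and 5058. Unscaled IP tags were thus close, and the lower OE share rests on an IP library 3.04 times deeper. The input at SAE1P1 held 122 tags in OE and 17 in WT, or 307 and 81.9 per 1000000, an OE over WT ratio of 3.76 (2.25 to 6.66). IP over input was therefore 11.5 (9.64 to 13.9) in OE against 145.8 (91.0 to 250.4) in WT. At the 5 SAE1 exons with input tags at the summit in both lists (1, 2, 3, 7 and 9), the input held 78 tags in OE and 24 in WT, a depth-scaled ratio of 1.70 (1.06 to 2.81). Taken singly, the interval left out 1 at exon 3 (17 input tags in OE, 2 in WT) and included 1 at exons 1, 2, 7 and 9. Over the 5 exons together, IP over input was 9.10 (7.27 to 11.5) in OE and 48.8 (32.8 to 76.3) in WT. The intervals of OE and WT do not overlap for either, but they rest on 1 library each, on windows of 237 and 226 bases and on few WT input tags. Whether the inputs differ through the cells or through the libraries cannot be told apart.

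The mitochondrial genome carried 1 peak, the longest of the list. It ran from position 7916 to 11566, 3651 bases or 23.6% of the span from the first to the last mitochondrial gene, over 10 of the 37 mitochondrial genes. Mitochondrial DNA is transcribed into long RNAs that cover nearly a whole strand and are cut at the tRNAs that lie between the coding genes. The 10 genes under the peak were 7 protein-coding genes (MT-CO2, MT-ATP8, MT-ATP6, MT-CO3, MT-ND3, MT-ND4L and MT-ND4, subunits of cytochrome oxidase, ATP synthase and complex I) and 3 tRNA genes (MT-TK, MT-TG and MT-TR) that lie between them. All 10 are on the plus strand, as are 28 of the 37, and the peak itself carries no strand.

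IP tags were similar at the summits of this peak, and the tags between summits are not listed. The 8 summits held 712 tags in MT-CO2, 663 where MT-ATP8 and MT-ATP6 overlap, 820 in MT-ATP6, 804 in MT-CO3, 691 in MT-TG, 624 in MT-TR, and 775 and 723 in MT-ND4. The highest exceeded the lowest 1.31 times, and neighbouring summits lay 278 to 647 bases apart. The authors' fold was 9.31 to 12.95 at 7 of these summits and 2.38 at the MT-CO2 summit. The tags at that summit were in the range of the others, whereas its background was 42.9 tags, set by 1811 input tags in the surrounding 10000 bases. At the 5 summits where the 1000-base window set the background, that window held 35 to 40 input tags.

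**Figure D2:**
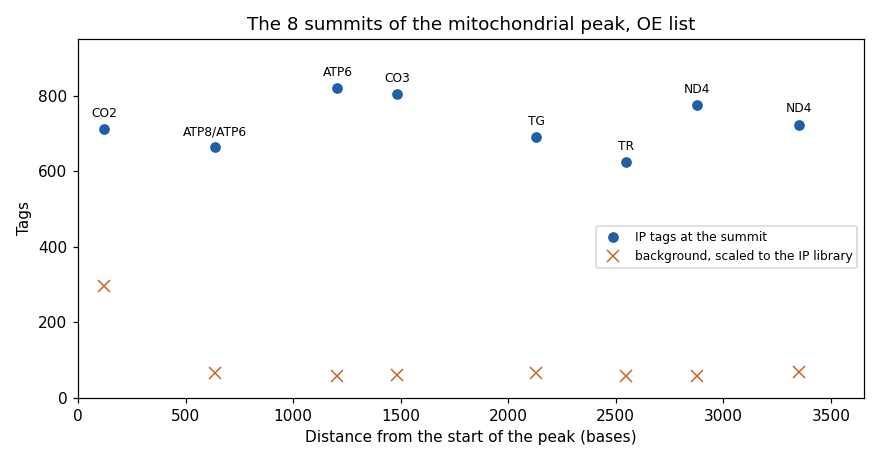
Circles give the IP tags at the 8 summits of the mitochondrial OE peak and crosses the local background scaled to the IP library, against the distance in bases from the start of the peak. IP tags at the summits lie between 624 and 820, and the summit in MT-CO2 has the highest background.

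Nuclear copies of mitochondrial genes carried 3 further peaks, all on chromosome 1 within a stretch of mitochondrial pseudogenes. Such copies are mitochondrial DNA inserted into a nuclear chromosome. MTCO1P12 and MTCO2P12 shared the strongest of these (632500 to 632827), with 222 IP tags and 1 input tag. It had the highest fold of the list, 16.7, with a −log10 q of 31.6. MTND1P23 (629143 to 629449) had 103 IP tags and a fold of 7.997, and MTATP6P1 (633864 to 634165) had 96 and a fold of 7.49, again with 1 input tag each. All 3 had q under 0.05, but IP over input against a single input tag is loosely fixed: 32.3 (5.74 to 1282), 15.0 (2.63 to 598) and 14.0 (2.45 to 558). Of 394 nuclear mitochondrial pseudogenes in the annotation, 4 lay under an OE peak, all of them here. Each of the 3 peaks also overlaps AL669831.3, a pseudogene on the opposite strand.

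The pseudogenes of this stretch keep the order of the mitochondrial genes. At 7 genes the offset between the copy and the mitochondrial genome was 625169 to 625171 bases, a range of 2, which gives each nuclear summit a mitochondrial counterpart. The MTND1P23 summit matches position 4122 in MT-ND1 and the MTCO1P12/MTCO2P12 summit matches position 7503 in MT-TS1, and both lie outside the mitochondrial peak. The MTATP6P1 summit matches position 8843 in MT-ATP6, inside it. The copies are near-identical to the mitochondrial genes, so the division of tags between them is uncertain.

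The MTCO1P12/MTCO2P12 summit, at 632673, falls inside MIR12136, a 71-base RefSeq hairpin on the minus strand (632615 to 632685), and inside its mature product printed above. In the deposited annotation the summit lies between MTCO1P12, which ends at 632616, and MTCO2P12, which starts at 632757, and in introns of AL669831.3. Since the peak has no strand and extended tags are longer than the hairpin, the tags cannot be given to the miRNA.

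RMRP, the RNA component of RNase MRP, which cuts ribosomal RNA precursors in the nucleolus, was the 1 gene with an OE peak among 12 abundant noncoding RNAs found in the annotation. The list included RPPH1, RN7SK, RN7SL1, MALAT1 and NEAT1. The RMRP peak (chromosome 9, 35657605 to 35658010) had 89 IP tags and 1 input tag, a fold of 6.98 and a −log10 q of 4.58, and IP over input was 13.0 (2.27 to 517). RMRP is 264 bases long, on the minus strand. The peak covered all but the first 7 bases and ran 149 bases past the 3′ end, and its summit lay 149 bases from the 5′ end.

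EEF1A1, which delivers aminoacyl-tRNA to the ribosome, had a peak at its start on chromosome 6 (73520993 to 73521236, minus strand) with 138 IP tags and 5 input tags. The fold was 3.52, the −log10 q 1.53 and IP over input 4.02 (1.68 to 12.6). The summit did not lie in the first exon of EEF1A1-210 or EEF1A1-202. It was 80 bases upstream of the start of EEF1A1-210, whose first exon is 33 bases long. It was 94 bases upstream of EEF1A1-202, whose first exon is 1136 bases long. It lay 477 bases into the 589-base first exon of EEF1A1-201, a 5′ UTR exon that starts further upstream and holds 237 of the peak's 244 bases. Of those bases, 33 also lie in exon 1 of EEF1A1-210. TATAA, the core promoter motif printed above, begins 28 bases before the RefSeq start. Searched on the gene's strand from 40 to 15 bases before the start, TATAA is in 1372 of 35116 RefSeq promoters, or 3.91%. Over the 300-base promoter and on both strands, the m6A-type motif GGACT is present at EEF1A1 and in 44.2% of all promoters, and the purine-rich motif GAAGAA is not among its letters and is in 19.8%. Among 6 elongation factor genes, EEF1A1 was the one with a peak. It also has many processed copies in the genome, so the placement of its tags is uncertain.

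RAD21, a subunit of the cohesin ring, had a peak over an exon on chromosome 8 (116850433 to 116850869, minus strand) with 60 IP tags and 2 input tags. Its fold of 3.24 had no q under 0.05, and IP over input was 4.37 (1.16 to 36.9). The exon is the 150-base exon 12 of RAD21-201, with the summit 117 bases from its 5′ end, and the peak runs 185 and 102 bases beyond the exon on its low and high sides. Over all annotated transcripts, exons hold 252 of the peak's 437 bases. RefSeq places LOC112268030 there as well as RAD21. The other 9 of 10 cohesin genes listed had no peak.

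TIMP3, a secreted inhibitor of matrix metalloproteinases, was the one protein-coding gene whose exon peak was in the OE list alone. The peak (chromosome 22, 32859142 to 32859414) had 59 IP tags, or 21.6 per 1000000 (16.5 to 27.9), with no input tag in the 237-base window. The authors' fold was 6.62 against the genome-wide background, with a −log10 q of 3.27. Against a floor of 3 input tags, IP over input was at least 2.86. The peak covered the last coding stretch: 38 bases of the last intron, all 195 coding bases of exon 5 and 37 of the 3666 bases of the 3′ UTR, with the summit 97 bases into the exon. TIMP3 lies inside SYN3, a synapsin gene on the opposite strand, and the strand of the tags is unknown. The other 3 TIMP genes had no peak.

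AC092958.1, a long intergenic RNA gene on chromosome 3, held the one peak classed as intronic (147964859 to 147965298), in the OE list alone. It had 30 IP tags, no input tag in the window, a fold of 3.71 and no q under 0.05. Against the floor of 3, IP over input was at least 1.46.

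By position, 11 of the 30 peaks (36.7%, 19.9 to 56.1) lay over exons of protein-coding genes and 5 (16.7%) over exons of other genes, and 11 (36.7%) were outside genes. The other 3 were the intronic peak, the mitochondrial peak and a peak on the unplaced scaffold GL000216.2. The WT list of 57 peaks had 15, 4 and 21 in the first 3 classes, 7 in introns, 2 in the mitochondrial genome and 8 on scaffolds. Of the 28 OE peaks on placed nuclear chromosomes, 11 (39.3%) were outside genes and 16 (57.1%) touched an exon. For scale, 45.3% of the span between the first and last gene of each chromosome is outside genes and 4.48% is exon. SAE1 and SAE1P1 make up 9 of those 28 peaks. Without them, 11 of 19 (57.9%, 33.5 to 79.7) were outside genes.

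Peaks outside genes were low. Their tags ranged from 29 to 147 with a median of 56, their median fold was 3.19, and 1 of 11 had q under 0.05, against 8 of 11 in protein-coding exons and 5 of 5 in other exons. The exon classes are not made of separate places. The first includes the 8 exons of SAE1, and the second SAE1P1 and the neighbouring mitochondrial copies on chromosome 1. Among the peaks outside genes, 1 stood out by q. This peak, with q under 0.05, lay on chromosome 21 (8234354 to 8234706), 6.708 kb from FP671120.1, with 56 tags, a fold of 6.21 and a −log10 q of 3.08. It had no input tag in the window, so IP over input was at least 2.72 against the floor of 3. A second chromosome 21 peak (8420090 to 8420538) had 29 tags, the fewest of the list, against 1 input tag, a fold of 2.61 and IP over input of 4.22 (0.70 to 172). RefSeq places the pseudogene CDC27P10 there, where the deposited annotation has no gene.

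Several of these peaks lay in long stretches without genes. The longest gene-free stretch of each chromosome often spans the centromere. Between the first and last gene, it is 3366201 of 133764639 bases on chromosome 10 and 10556824 of 90211124 on chromosome 16. Its share of all gene-free bases was not computed, so counts of peaks in it cannot show an excess. It held 4 of the 11 OE peaks outside genes and 13 of 21 in WT. In OE these were a chromosome 10 peak (41883099 to 41883601) with 38 tags against 1 input tag, a fold of 3.27 and IP over input of 5.53 (0.935 to 224), and 3 peaks that sit side by side on chromosome 16. The first of those (46387773 to 46388058) had 62 tags, a fold of 4.85 and at most 1 input tag in the 237-base window. The next (46388780 to 46389029) had 48 tags against 2 input tags, a fold of 2.66 and IP over input of 3.49 (0.916 to 29.7). The last (46390155 to 46390772) had 98 tags, a fold of 3.19 and at most 3 input tags. None of these 4 had q under 0.05. Input was not empty there: the 10000 bases around the first of the 3 peaks held 45 input tags. Such stretches are rich in repeats, and no source used here says how repeated tags were placed.

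The other 5 peaks outside genes lay on 5 chromosomes. On chromosome 16 a further peak (34588035 to 34588299) had 43 tags, a fold of 4.85 and no input tag in the window, which gives IP over input of at least 2.09 against the floor of 3. On chromosome 17 (21972884 to 21973206) there were 98 tags against 6 input tags, a fold of 2.18, the lowest of the list, and IP over input of 2.38 (1.05 to 6.64). On chromosome 3 (145699588 to 145700027) there were 32 tags against 1 input tag, a fold of 2.83 and IP over input of 4.66 (0.778 to 190). The scaffold peak on GL000216.2 (84819 to 85177) had 76 tags against 4 input tags, a fold of 2.41 and IP over input of 2.77 (1.04 to 10.4). None of these had q under 0.05.

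The chromosome 12 and chromosome 4 peaks were the 2 outside genes that overlap a WT peak. On chromosome 12 (66057447 to 66057829, 8.392 kb from RNA5SP362) OE had 147 IP tags and 6 input tags, an IP over input of 3.57 (1.60 to 9.88). The input held 15.1 tags per 1000000 in OE and 4.82 in WT, a ratio of 3.14 (0.381 to 144) that cannot be told from 1. On chromosome 4 (49092630 to 49092986, 30.549 kb from CWH43) OE had 84 IP tags and 4 input tags, an IP over input of 3.06 (1.15 to 11.5).

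**Figure D3:**
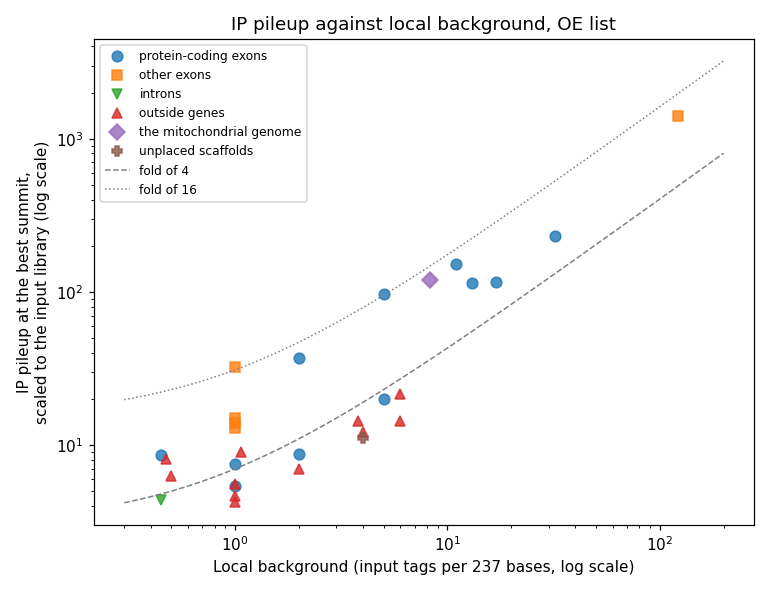
Each point is 1 of the 30 OE peaks, with the local input background per 237 bases on the horizontal axis and the IP pileup scaled to the input library on the vertical axis (both log scales). Lines mark folds of 4 and 16 after 1 tag is added to each, and 8 of the 11 peaks outside genes lie below the line for 4, with the others at 4.85, 4.85 and 6.21.

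Input was sparse at many OE peaks. At the best summit, 14 of 30 peaks had at most 1 input tag and 7 had more than 5, and at the mitochondrial peak the wider window allows at most 8. The 237-base window at the summit set the background at 23 peaks, the 1000-base window at 3, the 10000-base window at 2 and the genome-wide value of 0.448 tags at 2.

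By overlap of at least 1 base, 16 of the 30 OE peaks (53.3%, 34.3 to 71.7) coincide with a WT peak and 14 do not. The 16 are SAE1P1, the 8 SAE1 exons, MTCO1P12/MTCO2P12, EEF1A1, RAD21, RMRP, the mitochondrial peak and the peaks on chromosomes 12 and 4. Their summits were 0 to 32 bases apart (median 4), and the WT peak covered a median of 96.7% of the OE peak, with 8.30% for the mitochondrial one, which is 303 bases long in WT. For the mitochondrial peak the distance, 9 bases, is from the nearest of its 8 OE summits, which is not its best summit.

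Shared peaks were taller by the median, but the ranges overlap. Of the 14 peaks of the OE list alone, 3 had fewer tags than every shared peak. SAE1 and SAE1P1 make up all but 7 of the shared peaks and include the tallest. The 16 shared peaks had a median of 237.5 tags (37 to 9661) and a median fold of 7.00, and 11 of them had q under 0.05. The 14 peaks of the OE list alone had a median of 57.5 tags (29 to 103) and a median fold of 3.49, with 4 of 14 under q 0.05. Those 4 were MTND1P23, MTATP6P1, TIMP3 and the chromosome 21 peak. Outside genes lay 9 of the 14, against 2 of the 16 shared peaks.

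The OE list alone does not mean absence from WT. At an equal share of the IP library, the 14 peaks would have 9.54 to 33.9 WT tags (median 18.9), because the WT IP library has 896288 tags and is 3.04 times shallower. The smallest WT summit listed has 9 tags and the smallest OE one 29, so some such peaks could be listed in WT and others were near its limit. Only listed peaks are known, so WT tags at these 14 places were not measured. MTATP6P1 lies 1073 bases, and MTND1P23 3086 bases, from the nearest WT peak.

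Within the shared peaks, the authors' fold was lower in OE than in WT at 14 of 16 and higher at 2, MTCO1P12/MTCO2P12 and the mitochondrial peak. The folds of the lists are not on the same scale. Each adds 1 tag at the depth of its own input, and the OE input is 1.91 times deeper. The 14 include SAE1P1 and all 8 SAE1 exons, which are 1 gene and its copy. Without these, 7 shared peaks remain, so the counts in this paragraph are not of 16 separate places. The background per 1000000 input tags was higher in OE at 12 of 16 and lower at 4 (MTCO1P12/MTCO2P12, RAD21, RMRP and the mitochondrial peak), although at 4 of the 12 the WT value is the genome-wide background. At the mitochondrial peak, the summit nearest the WT one had a background of 20.9 per 1000000 in OE and 86.0 in WT. Input tags at the summit are known in both lists at 11 of 16 peaks. The interval of the OE over WT input ratio leaves out 1 at 2 of these 11, SAE1P1 and SAE1 exon 3, where the ratio was 4.45 (1.06 to 39.7). The OE over WT ratio of IP tags, scaled to library totals, had an interval below 1 at 12 of 16 peaks and above 1 at 2, the same pair whose fold was higher in OE. SAE1P1 and all 8 SAE1 exons are among those 12. Across the 12 the ratio was 0.234 to 0.328, with an OE IP library 3.04 times deeper than that of WT. Before scaling, RAD21 had 60 IP tags in OE and 68 in WT, RMRP 89 and 106, and the chromosome 12 peak 147 and 197. The same scaling to library totals enters all 12, so they are not separate decreases. At EEF1A1 the IP held 50.6 tags per 1000000 in OE and 40.2 in WT, a ratio of 1.26 (0.868 to 1.87) that includes 1, while the authors' fold was 3.52 in OE and 4.67 in WT.

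**Figure D4:**
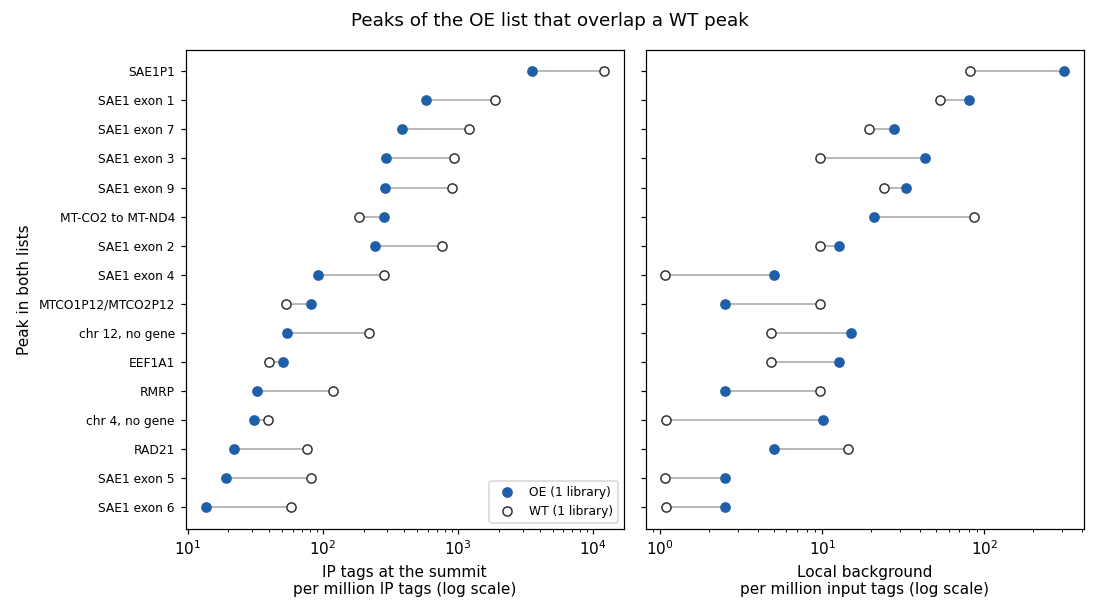
The left panel gives IP tags per 1000000 IP tags and the right panel the local background per 1000000 input tags (both log axes) at the 16 OE peaks that overlap a WT peak, with filled circles for OE and open circles for WT, 1 library each. SAE1P1 stands at 11939 in WT and 3544 in OE on the left and stands at 307 in OE against 81.9 in WT on the right.

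No OE peak lay over the RNA exosome and its cofactors (0 of 19 genes in the annotation), the SR proteins (0 of 10) or the m6A writers, erasers and readers (0 of 10). Markers of fibroblasts (0 of 5), leukocytes (0 of 4) and endothelium (0 of 3) had none. A gene without a peak was not enriched in the IP by the authors' threshold, which says nothing of its level.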

How the data were processed

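RNA libraries of 1 input and 1 IP each from WT and OE RKO cells were compared. The authors called peaks with MACS 2.1.0.20150420, each IP against its input, with p = 0.005 and an effective genome size of 209714707, per the file headers. The submitters' processing notes also name FastQC 0.11.5 and HOMER. The aligner and genome build are not given in the sources used here. Of 36022 gene symbols matched once to RefSeq GRCh38.p14, 99.9% overlap on the same chromosome. The deposited lists hold, per summit, the pileup signal scaled to the input library, the fold ratio over background, and −log10 p and −log10 q values, all the authors' own. The header of the OE list says that q was not calculated, yet the column holds values, which are used as given. The OE treatment alignment is taken as the IP from its role in the header.

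IP tags are pileup divided by the ratio of input to IP totals, and were whole within 0.1 at all 39 OE and 67 WT summits. Background is (pileup + 1)/fold − 1. The authors' −log10 p was recomputed within 0.05 at all 39 OE summits. A peak is represented by its summit with the smallest p. Peaks were placed against the deposited annotation in 6 ordered classes: mitochondrial genome, scaffold, protein-coding exon, other exon, intron, outside genes. Intervals are exact Poisson, binomial or Clopper-Pearson (scipy 1.17.1, numpy 2.4.6, Python 3.11.15). No test between conditions was made, and the computation of tags and background from pileup and fold was tested on simulated data. The deposited splicing tables were not used here.

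Every joined OE peak is named, with values in full for those with q under 0.05 or no WT overlap. The members and gene lists were chosen with earlier results of these data known. The result of 1 of these lists is not reported here.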

Additional observations from a re-analysis of the deposited data

How the results depend on the processing

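Of 36 alternatives to 11 results, 24 were labelled the same and 12 moved. Only the medians of tags, fold and length have interval limits. The labels of the counts are rougher: 39 summits in place of 30 peaks was labelled the same. Keeping peaks with q under 0.05 left 15 of 30 peaks, 1 outside genes, 0 in introns and 0 on scaffolds, with a median of 253 tags and a median fold of 7.997. A fold of at least 4 left 17 peaks. Without SAE1 and SAE1P1, 7 peaks overlapped WT. Counting summits gave 8 in the mitochondrial genome and 2 in introns, and annotating the best summit base also gave 2 in introns. Peaks of the OE list alone had a median of 57.5 tags. No paired analysis was possible because each group has 1 library and no result comes from a test, and leaving out a replicate was not possible either. The motif windows around summits were not run: they need a genome sequence, which was not used here, and the promoter table reaches only from 250 bases before to 50 after gene starts. Few input tags limit most ratios, other than those of SAE1P1 and the SAE1 sum.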
